A study of Homo sapiens with 24 samples.

Results

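The response of HK-2 cells to 24 h at low oxygen was followed in the libraries that received solvent only. HK-2 is an immortalised line of human proximal tubule epithelium, the kidney segment that reabsorbs most of the filtered load and depends on oxidative metabolism. The comparison sets 3 libraries from cells kept at 0.3% oxygen against 5 libraries from cells kept in normoxia, 8 of the 24 libraries of the series. All of them were seeded in 6-well plates, deprived of serum overnight and given the same solvents (0.0001% DMSO, 4 µM HCl and 0.0001% BSA), so the response is that of serum-deprived cells of 1 line. The labels call the replicates biological but do not state how they were separated, and p-values therefore reflect only the spread among the fitted libraries, which may be technical. A further 6 libraries carried the soluble guanylate cyclase activator BAY 60-2770 (BAY below), 3 in normoxia and 3 at 0.3% oxygen, and serve here as a separate measurement of the oxygen effect. All 14 libraries were fitted together, so both measurements share 1 estimate of the spread. The labels give the BAY dose as 1 mM, which is far above usual culture doses of such compounds and may be a misprint. Of 65180 gene IDs in the table, 21316 passed the filter on low counts and were tested.

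Cells sense oxygen through prolyl hydroxylases of the EGLN family, which need oxygen to mark the alpha subunits of the hypoxia-inducible factors (HIF) for degradation through the VHL protein. At low oxygen the alpha subunits HIF-1α (HIF1A) and HIF-2α (EPAS1) accumulate, pair with ARNT and bind DNA at hypoxia response elements, whose core is ACGTG or GCGTG. Known targets supply glucose transport, glycolysis, acid-base enzymes, angiogenic hormones and mitophagy receptors, and in the kidney tubule the same system is studied in ischaemic injury and chronic disease.

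The 8 libraries held between 86042014 and 99779390 counts. The labels were checked with 4 genes known as hypoxia markers, CA9, NDRG1, ADM and ANGPTL4, whose levels in the 3 hypoxic libraries were all above those in the 5 normoxic ones. Tubule identity was checked as well. Levels are given as CPM, counts scaled to a library total of 1000000, with totals corrected by TMM (trimmed mean of M-values). PAX8 (264 CPM in normoxia), DPP4 (647), GGT1 (208) and the injury marker HAVCR1 (469) were abundant. The endocytic receptors LRP2 and CUBN (0.130 and 0.505 CPM), the regulator HNF4A (0.0233) and the peptidase ANPEP (0.320) were near 0. Most markers of other cells were low: 7 of 9 endothelial, 5 of 8 immune, 4 of 6 podocyte and 6 of 8 distal nephron markers were below 1 CPM in both groups, and so were 4 of 7 fibroblast markers. Of 33 proximal tubule markers 16 were below 1 CPM in both groups as well, so these shares separate the cell types only weakly. Within the normoxic controls, libraries 3 and 4 stood apart from 1, 2 and 5 along the second principal component (11.9% of the variance, against 50% for the first, which separated hypoxia from normoxia). What separated these controls was not stated, so values against controls 1, 2 and 5 only or 3 and 4 only are given where a result described below depends on them.

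The promoter windows of 6 of the most strongly raised genes are printed because they show how differently the HIF core motif is placed, or missing, among genes that share a response. Each is the 250 bases before the most upstream start of the RefSeq table on GRCh38.p14, 5′ to 3′ on the gene's strand. Capitals mark ACGTG or GCGTG on either strand, so the reverse forms CACGT and CACGC are capitals too, and no 2 marked matches overlap. The windows lie at chr9:35673678-35673927 (CA9, plus strand), chr14:61751098-61751347 (HIF1A-AS3, minus), chr19:8363905-8364154 (ANGPTL4, plus), chr7:143620724-143620973 (TCAF2, plus), chr19:18255363-18255612 (PDE4C, minus) and chr11:10304823-10305072 (ADM, plus).
CA9: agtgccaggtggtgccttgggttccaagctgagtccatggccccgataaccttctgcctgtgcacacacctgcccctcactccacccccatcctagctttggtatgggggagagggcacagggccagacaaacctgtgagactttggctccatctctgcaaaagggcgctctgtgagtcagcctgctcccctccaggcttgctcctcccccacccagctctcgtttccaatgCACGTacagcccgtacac
HIF1A-AS3: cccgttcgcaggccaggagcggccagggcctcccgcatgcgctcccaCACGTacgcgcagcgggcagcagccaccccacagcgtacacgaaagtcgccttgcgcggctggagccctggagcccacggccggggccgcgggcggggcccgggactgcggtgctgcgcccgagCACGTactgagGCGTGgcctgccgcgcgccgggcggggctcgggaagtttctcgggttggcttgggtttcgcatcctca
ANGPTL4: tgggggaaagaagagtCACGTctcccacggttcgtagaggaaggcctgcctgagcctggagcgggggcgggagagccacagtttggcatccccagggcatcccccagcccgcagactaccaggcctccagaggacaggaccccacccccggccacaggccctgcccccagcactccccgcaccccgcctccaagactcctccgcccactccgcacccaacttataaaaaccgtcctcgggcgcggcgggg
TCAF2: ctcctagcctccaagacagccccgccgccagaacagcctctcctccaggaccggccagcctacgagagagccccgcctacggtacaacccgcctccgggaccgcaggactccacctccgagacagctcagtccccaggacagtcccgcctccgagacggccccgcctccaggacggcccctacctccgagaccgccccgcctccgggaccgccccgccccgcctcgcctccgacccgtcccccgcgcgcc
PDE4C: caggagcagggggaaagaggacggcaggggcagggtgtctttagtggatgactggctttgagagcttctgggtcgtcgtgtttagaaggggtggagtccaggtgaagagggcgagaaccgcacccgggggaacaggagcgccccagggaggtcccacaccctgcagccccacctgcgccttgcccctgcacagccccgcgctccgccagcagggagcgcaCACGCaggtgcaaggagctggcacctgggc
ADM: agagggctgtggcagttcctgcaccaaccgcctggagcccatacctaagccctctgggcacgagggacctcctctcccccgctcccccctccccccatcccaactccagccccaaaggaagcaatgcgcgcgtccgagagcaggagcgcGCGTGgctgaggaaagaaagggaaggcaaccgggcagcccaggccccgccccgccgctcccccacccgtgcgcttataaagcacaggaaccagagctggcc
CA9 holds 1 match, on the strand opposite to the gene and ending 14 bases before the start. ADM holds 1 GCGTG, ANGPTL4 1 ACGTG near the far end of its window and PDE4C 1 GCGTG on the opposite strand, whereas HIF1A-AS3 holds 3 matches and TCAF2 none. PDE4C has 4 listed starts and TCAF2 has 2, and the windows of their other starts are not printed. Across genes, ACGTG occurred in 29.9% of the 87 windows, from 60 genes, of those called at least 8-fold higher. It occurred in 21.7% of the windows of all tested genes and in 18.8% of those of genes called at least 2-fold lower. GCGTG occurred in 35.6%, 41.9% and 37.4% of these windows, and in all 35116 RefSeq windows the shares were 18.5% and 32.2%. For genes called 4- to 8-fold higher the ACGTG share was 21.4%, and for 2- to 4-fold 23.6%. Both lay near the share of all tested genes, so there was no steady gradient with the size of the rise. The windows of the genes called at least 8-fold higher had a median GC content of 60.8% against 64% for all tested genes, and the part of base composition in these shares was not tested. These shares are descriptions, and a match is not shown to be a bound site.

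Hypoxia changed the levels of most expressed genes, and mostly by less than 2-fold. The robust quasi-likelihood test of edgeR called 12960 genes (60.8% of those tested, Benjamini-Hochberg adjusted p below 0.05), of which 6217 rose (29.2%) and 6743 fell (31.6%). With library totals as scaling in place of TMM, 5409 rose and 7731 fell, so the near balance depends on the scaling. At least 2-fold changes were called in 1448 risen (6.79%) and 1410 fallen genes (6.61%), and at least 8-fold changes in 122 and 44. With a filter at 1 CPM in 3 libraries, which tests fewer genes, at least 2-fold changes numbered 859 and 815. The median log2 fold change over all tested genes was -0.02. Counts for the gene lists below are to be read against the shares over all tested genes, 29.2% higher and 31.6% lower. The libraries of both groups did not overlap for 12286 genes (57.6%), so a lack of overlap is common here and is no special property of a gene. The largest rises and falls by fold were selected among such genes, so for them it adds no support. Protein-coding genes were called lower (39.4%) more often than higher (31.5%), whereas lincRNA genes were called higher in 23.6% and lower in 17.0% of cases. The plot of fold change against level places the largest rises across the whole range of expression, from genes near 0 in normoxia to the abundant NDRG1.

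**Figure D1:**
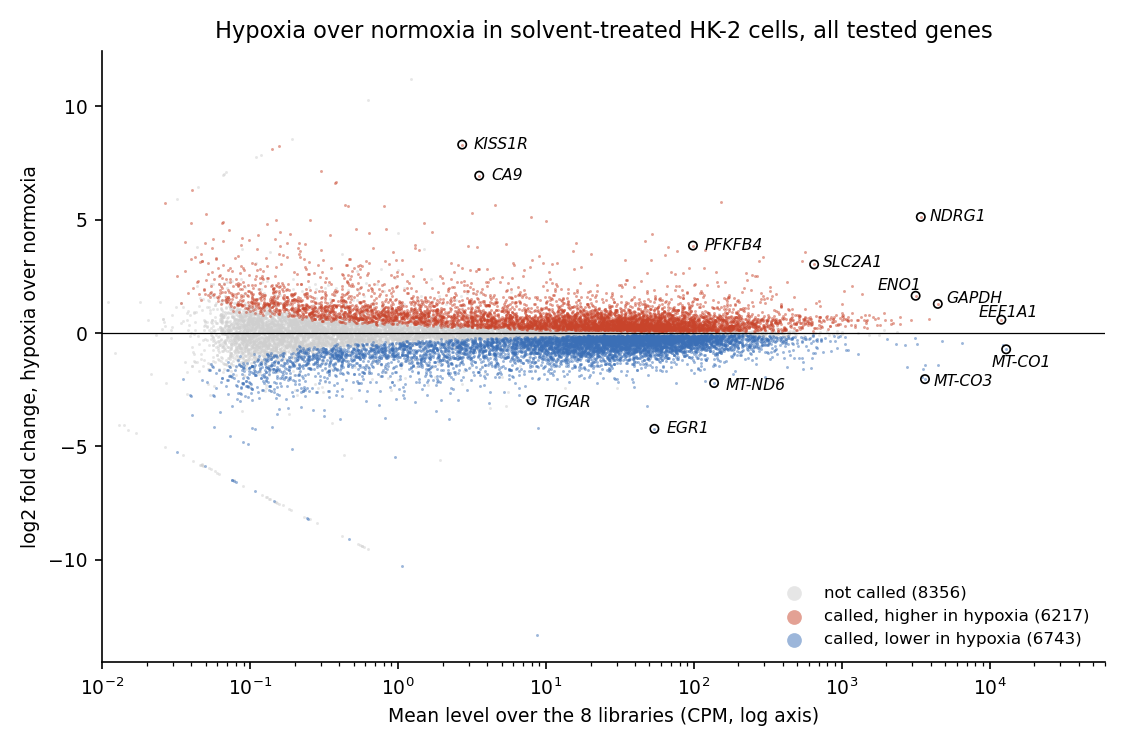
Log2 fold change of each tested gene, hypoxia over normoxia in solvent-treated cells, against its mean level over the 8 libraries (CPM, log axis); red points were called higher (6217), blue lower (6743) and grey not called. NDRG1 and SLC2A1 combine a large rise with a high level, and the mitochondrial transcripts MT-CO1 and MT-CO3 lie below 0 at the right of the plot.

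Among the largest rises, several genes went from nearly silent to clearly expressed. KISS1R (ENSG00000116014, chromosome 19, 917287 to 921015), the kisspeptin receptor, had 10 counts in all 5 normoxic libraries together and 1935 in the 3 hypoxic ones. The ratio of its summed counts, corrected for library size, was 338 (95% exact interval 183 to 706, counting error only). In CPM its normoxic libraries held 0.0297, 0.0108, 0.0313, 0 and 0.0335 and its hypoxic ones 7.14, 7.18 and 7.25. No normoxic library came near the hypoxic range. CA9 (ENSG00000107159, chromosome 9, 35673856 to 35681159), a carbonic anhydrase of the cell surface, held 0.109, 0.0433, 0.0730, 0.0546 and 0.0894 CPM at normal oxygen, compared with 9.06, 9.51 and 9.33 CPM in hypoxia, from 35 and 2502 counts. Its ratio was 125 (89.5 to 180). ANGPTL4 (ENSG00000167772, chromosome 19, 8363289 to 8374373), which inhibits lipoprotein lipase, held 0.257, 0.260, 0.0313, 0.175 and 0.291 CPM against 8.41, 8.18 and 7.52 CPM. Normoxic control 3 was the lowest at 3 counts, and the ratio was 39.9 (32.5 to 49.5).

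Large rises were also called in genes with clear expression in normoxia, such as NDRG1 and ADM, and in further genes of low level. NDRG1 (ENSG00000104419, chromosome 8, 133237171 to 133302022), a stress-induced gene linked to differentiation, held 297, 285, 196, 193 and 279 CPM under normoxia, against 8563, 8326 and 9240 CPM in hypoxia. Its hypoxic mean was 0.871% of the TMM-corrected library total. The log2 fold change was 5.12 (SE 0.139, edgeR adjusted p = 4.46e-12), and the gene gained more CPM than any other. ADM (ENSG00000148926, chromosome 11, 10304680 to 10307397), which encodes the vasodilator adrenomedullin, held 7.30, 7.12, 5.24, 4.95 and 6.89 CPM against 119, 116 and 152 CPM. Both genes were lower in normoxic controls 3 and 4 than in the other controls, by far less than the step to hypoxia. PDE4C, a phosphodiesterase that degrades cyclic AMP, rose from 0.822 ± 0.124 to 25.2 ± 2.20 CPM (SD, n = 5 and 3). RORA, a nuclear receptor of the circadian clock, rose from 2.44 ± 0.363 to 38.6 ± 2.11 CPM, and the long noncoding RNA LUCAT1 from 6.84 ± 1.26 to 114 ± 10.6 CPM. PTGS1, the constitutive cyclooxygenase, had 21.8 ± 3.17 and 279 ± 17.9 CPM, and the scaffold gene PPFIA4 14.6 ± 1.64 and 179 ± 4.57 CPM. DOC2A, a calcium sensor of vesicle release, had 0.493 ± 0.0533 and 7.11 ± 0.671 CPM. TCAF2, which regulates the cold-sensing channel TRPM8, rose by 5.14 on the log2 scale (SE 0.223). HIF1A-AS3 was called higher by 5.65 (SE 0.268), but it overlaps HIF1A on the other strand, and whether the quantification used strand is not stated, so reads of HIF1A may be counted in it.

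**Figure D2:**
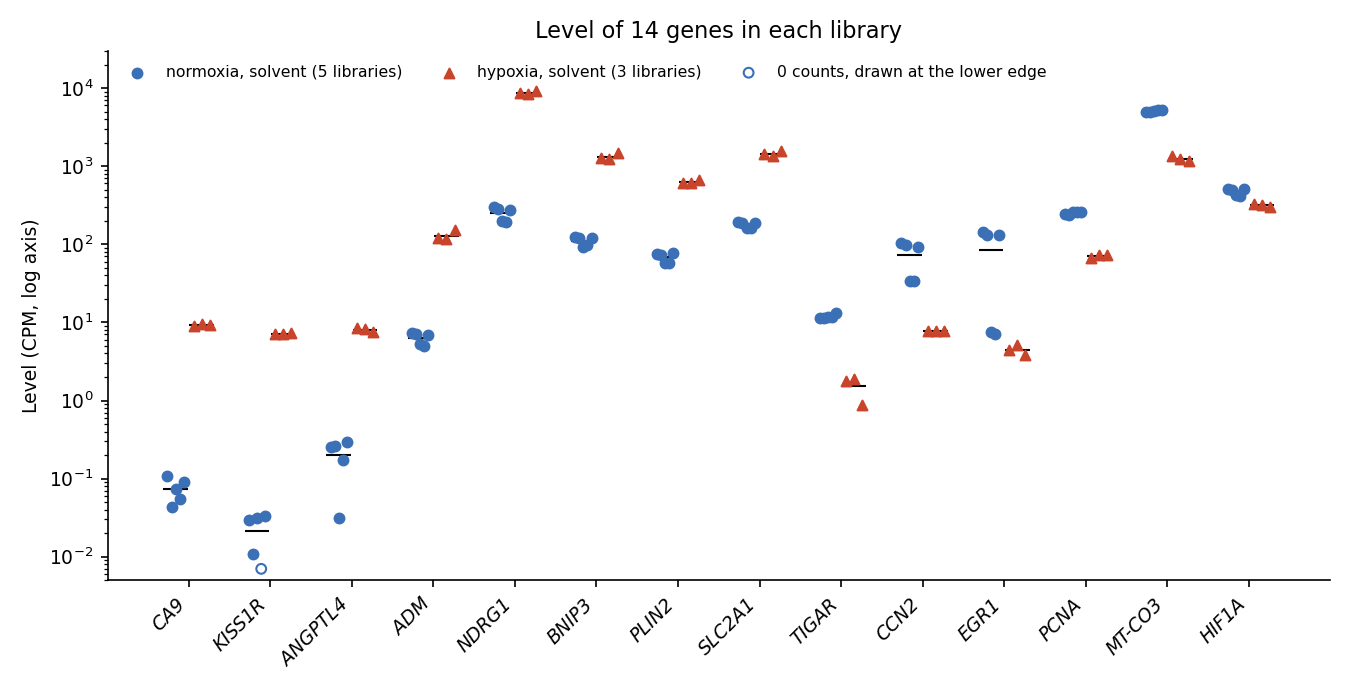
Level of 14 genes in each of the 8 libraries (CPM, log axis); circles are the 5 normoxic and triangles the 3 hypoxic solvent libraries, bars are group means, and the open circle is a library with 0 counts. The groups do not overlap for any of the 14 genes, several of which were selected for this, and 57.6% of all tested genes do not overlap either. For CCN2 and EGR1 normoxic controls 3 and 4 lie below the other controls.

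The genes of the HIF system themselves moved in both directions. HIF1A mRNA held 505, 492, 423, 420 and 506 CPM at normal oxygen, compared with 325, 315 and 301 CPM in hypoxia, and fell by 0.58 on the log2 scale (SE 0.078, edgeR adjusted p = 1.2e-05). EPAS1 rose from 286 ± 11.6 to 425 ± 17.7 CPM and ARNT from 42.2 ± 1.42 to 56.5 ± 1.88 CPM, whereas ARNT2, the paralog of ARNT, fell from 17.9 ± 1.22 to 6.58 ± 0.283 CPM. Per kb of exon, HIF1A stood at 91.1 CPM and EPAS1 at 39.1 CPM in normoxia, and at 60.9 and 58.3 CPM in hypoxia, so the levels of both transcripts came close to each other. mRNA levels say nothing of the proteins, which are controlled by degradation. Of 15 genes of oxygen sensing and HIF turnover 5 rose and 4 fell, near the shares of all genes. The steepest rises were in genes of HIF turnover. EGLN3 held 14.5, 13.4, 10.3, 9.37 and 15.4 CPM under normoxia, against 115, 113 and 122 CPM in hypoxia, with no overlap. EGLN1 rose from 64.3 ± 4.09 to 204 ± 5.22 CPM, and SIAH2, a ubiquitin ligase that targets EGLN proteins, from 21.3 ± 0.740 to 37.3 ± 1.16 CPM. EGLN2 fell by 0.31, and VHL was not called (69.9 ± 2.25 and 74.2 ± 1.33 CPM), but was called higher by 0.17 against normoxic controls 3 and 4 only. VHL was also called higher with DESeq2 (0.10), RLE size factors (0.10) and the filter at 1 CPM (0.11). The same held with only the libraries compared (0.09) and without normoxic control 5 (0.11). HIF1AN, the asparagine hydroxylase that limits HIF activity, rose by only 0.17 (0.09 with library totals as scaling).

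Glucose uptake and glycolysis formed the most uniform rise of all lists. The lists were chosen with earlier results of these data known, so this ranking only describes them. Of 20 tested genes 18 rose, none fell and 2 were not called (ALDOC at 0.411 and 0.360 CPM, and LDHB at -0.11 on the log2 scale), with a median log2 fold change of 1.43. LDHB was called lower with library totals as scaling (-0.18) and without hypoxic library 3 (-0.19). The summed level of the list went from 11427 to 13089 CPM over the normoxic libraries to 28558 to 30759 CPM over the hypoxic ones. SLC2A1, the main glucose transporter of most cells, held 190, 186, 160, 159 and 188 CPM at normal oxygen, compared with 1432, 1340 and 1543 CPM in hypoxia. PFKFB4, whose product makes the sugar phosphate that activates phosphofructokinase, held 17.9, 16.9, 14.0, 15.3 and 17.2 CPM against 236, 226 and 245 CPM. Neither gene had overlapping groups, and PFKFB4 had the largest log2 fold change of the list (3.86, SE 0.062, edgeR adjusted p = 7.59e-16). SLC2A3 rose by 2.69, although its reads may be shared with its near-identical paralog SLC2A14, and PFKFB3 rose by 2.35. SLC2A2, the transporter of low glucose affinity that marks the proximal tubule, moved the other way and fell from 37.6 ± 6.02 to 14.5 ± 0.937 CPM. It was counted with the proximal tubule genes and not in this list.

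Within enzyme families the paralogs differed in size of change. Of the hexokinases HK2 rose by 1.60 and HK1 by 0.99, and of the phosphofructokinases PFKP rose by 1.28, PFKL by 1.05 and PFKM by 0.30. ENO2 rose by 2.23 (179 ± 18.0 to 841 ± 68.8 CPM) and ENO1 by 1.64 (1757 ± 117 to 5489 ± 253 CPM). Per kb of exon ENO1 still exceeded ENO2, at 1040 against 196 CPM in hypoxia. At the lower end of the pathway the rises were small: PGAM1 rose by 0.44 and PKM, the pyruvate kinase, by 0.38. GAPDH, often used as a reference gene, rose from 2897 ± 225 to 7061 ± 234 CPM, ALDOA from 732 ± 51.7 to 2438 ± 86.1 CPM and PGK1 from 529 ± 43.2 to 2249 ± 90.3 CPM. For lactate export SLC16A3, the carrier typical of glycolytic cells, rose by 1.48 (179 ± 11.7 to 501 ± 11.7 CPM), whereas the second carrier SLC16A1 was not called (325 ± 16.6 and 329 ± 20.4 CPM). Among acid-base genes the bicarbonate transporters SLC4A4 and SLC4A7 fell by 0.61 and 0.88, and CA12, another surface carbonic anhydrase, was not called (23.3 ± 5.04 and 18.2 ± 0.911 CPM). Its result depended on the controls: CA12 was called lower against controls 1, 2 and 5 only (-0.55) and was at 0.06 and not called against 3 and 4 only. It was also called lower with DESeq2 (-0.34), with library totals (-0.42) and without normoxic control 3 or 4 (-0.43 in both).

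**Figure D3:**
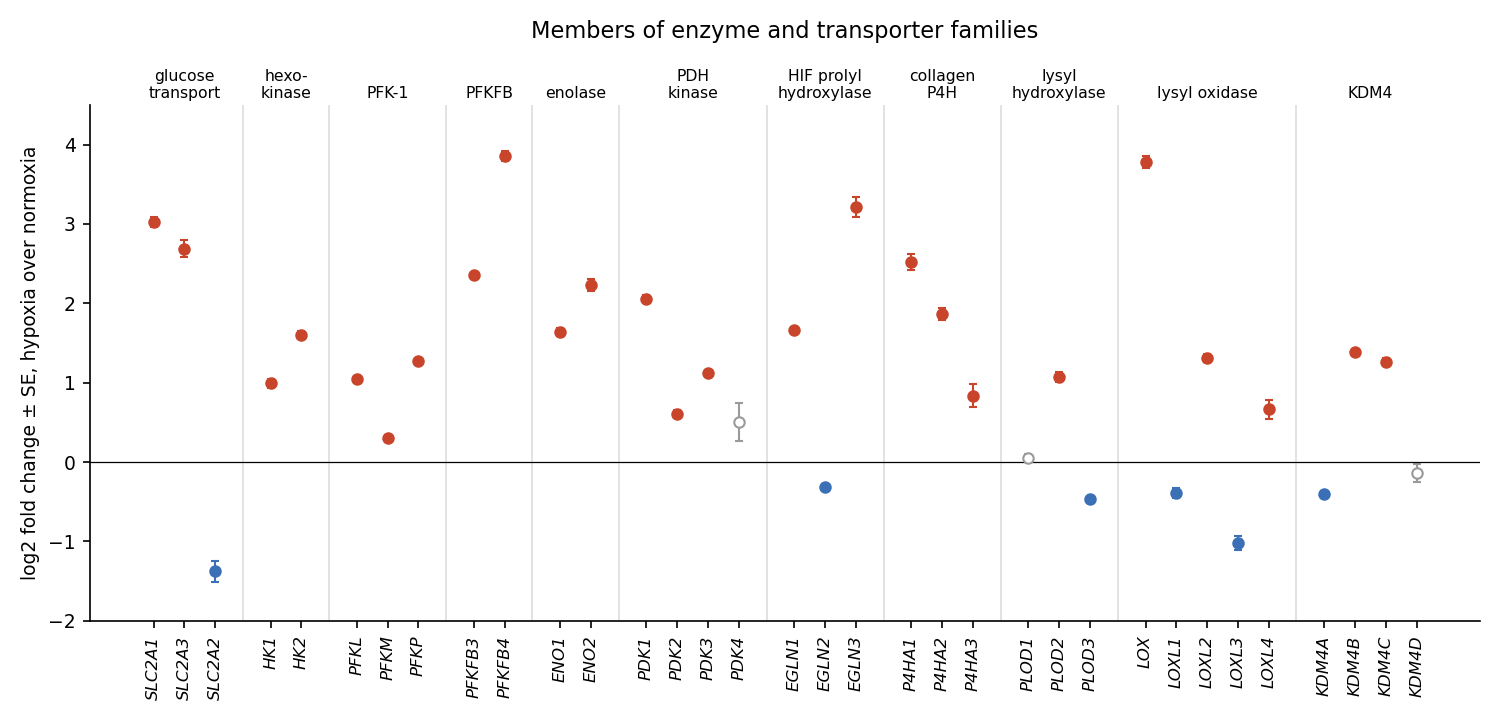
Log2 fold change, hypoxia over normoxia in solvent-treated cells, with SE, for members of 11 enzyme and transporter families; red was called higher, blue lower, and open grey was not called. In the glucose transporter, HIF prolyl hydroxylase, lysyl hydroxylase, lysyl oxidase and KDM4 families at least 1 member was called higher and at least 1 lower.

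Of 10 glycogen genes 5 rose and 2 fell, and of 8 pentose phosphate genes 2 rose and 6 fell. For comparison, 29.2% of all tested genes rose and 31.6% fell. The median of the glycogen list was 0.94. GYS1 (glycogen synthase), GBE1 (the branching enzyme) and PPP1R3C (a targeting subunit that activates the synthase) rose by 1.48, 2.16 and 2.29, and PGM1, which links glycogen to glucose 6-phosphate, by 1.28. Of the phosphorylases that break glycogen down PYGL rose by 0.60 and PYGB fell by 0.73. The list's median was 0.35 without hypoxic library 2, and PPP1R3B, which had counts only in normoxic control 4 and hypoxic library 2, was not called. The median of the pentose phosphate list was -0.49. TIGAR, a phosphatase that diverts glucose into this pathway, held 11.4, 11.5, 11.7, 11.6 and 13.0 CPM against 1.78, 1.89 and 0.870 CPM (log2 fold change -2.96, SE 0.315, edgeR adjusted p = 3.63e-06). The groups did not overlap, which was a condition for naming it among the largest falls. TKT, of the non-oxidative branch, rose from 725 ± 39.5 to 1243 ± 29.5 CPM.

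At the entry of pyruvate into mitochondria 3 of the 4 inhibitory kinases rose and subunits of the complex fell. PDK1, which inactivates pyruvate dehydrogenase, held 37.1, 36.8, 35.2, 36.8 and 35.9 CPM at normal oxygen, compared with 151, 149 and 155 CPM in hypoxia. PDK3 rose by 1.12 and PDK2 by 0.61, and PDK4 was not called (12.7 ± 4.13 and 18.2 ± 1.84 CPM), with normoxic controls 3 and 4 at 8.31 and 8.22 CPM against 15.2 to 16.6 CPM in the others. Against controls 3 and 4 only, PDK4 was called higher by 1.17. It was also called higher with limma voom (0.58), a replicate block (0.51) and without normoxic control 5 (0.63). DLAT, DLD and PDHA1, which encode subunits of the complex, fell by 0.45, 0.39 and 0.36, and the activating phosphatase PDP1 fell by 0.64. MPC1, a subunit of the mitochondrial pyruvate carrier, fell from 9.05 ± 0.734 to 2.97 ± 0.358 CPM, whereas its partner MPC2 rose by 0.30 (0.19 against normoxic controls 1, 2 and 5 only and 0.53 against 3 and 4 only). In total 4 of the 14 genes rose and 6 fell.

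All 13 protein-coding transcripts of the mitochondrial genome fell, but by unequal amounts. The falls ranged from 0.42 for MT-ND4 to 2.21 for MT-ND6 on the log2 scale. MT-CO3 held 4988, 4973, 5069, 5211 and 5247 CPM under normoxia, against 1340, 1227 and 1167 CPM in hypoxia, while MT-ND4 held 7085, 7194, 7153, 7088 and 7192 CPM against 5716, 5169 and 5123 CPM. Although both transcripts were separated between the groups, the step was far larger for MT-CO3. MT-ND5, MT-ND4L and MT-CO1 were close to MT-ND4 (-0.51, -0.57 and -0.72, with MT-ND5 at -0.32 against normoxic controls 3 and 4 only), and MT-CYB, MT-CO2, MT-ND1, MT-ND3, MT-ATP8, MT-ATP6 and MT-ND2 lay between -1.40 and -1.94. MT-RNR2, the large ribosomal RNA, fell by 0.55. The libraries were made from poly(A) RNA, so these values depend on polyadenylation as well as on abundance, and MT-ND6, which lies on the strand opposite to the other messages, cannot be separated from antisense reads without strand. Fewer mitochondrial genomes per cell and less RNA per genome cannot be told apart here.

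The nuclear genes of the respiratory chain had smaller changes, in both directions. Of 35 complex I subunits 16 fell and 4 rose (median -0.18). NDUFA6 (22.1 ± 2.24 to 7.85 ± 2.48 CPM), NDUFS6 (53.8 ± 2.31 to 22.5 ± 2.52 CPM) and NDUFS8 (39.3 ± 0.720 to 19.5 ± 1.22 CPM) fell more than 2-fold, and NDUFS4 rose by 0.47. Complexes II, III, IV and V had 2 of 4, 5 of 9, 3 of 8 and 9 of 15 subunits lower and 0, 3, 2 and 5 higher. The shares over all tested genes were 31.6% lower and 29.2% higher. The medians of complexes II and IV were slightly below 0 and turned positive against normoxic controls 3 and 4 only (0.046 and 0.0095). That of complex IV was also positive without hypoxic library 1 (0.040) or 2 (0.023). The 3 genes for the same subunit c of ATP synthase went apart: ATP5MC1 and ATP5MC3 fell by 0.91 and 0.66, and ATP5MC2 rose by 0.62. Of genes described in other cells as remodelling the chain in hypoxia, HIGD1A fell from 51.8 ± 1.89 to 21.7 ± 1.42 CPM, NDUFA4 fell by 0.42, COX4I1 was not called, and NDUFA4L2 was barely expressed and not called (0.550 ± 0.0720 and 0.416 ± 0.0861 CPM). Among 19 genes of mitochondrial transcription and biogenesis 11 fell and 4 rose. The co-activators PPARGC1A and PPARGC1B fell by 0.83 and 1.20, the transcription factor TFAM by 0.52 and the RNA polymerase POLRMT by 0.56, whereas MYC rose by 0.63 and the DNA polymerase subunit POLG2 by 0.83.

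Of 12 genes of mitophagy and mitochondrial death 6 rose and 5 fell, and the mitophagy receptor BNIP3 rose most. BNIP3 held 124, 119, 93.2, 97.5 and 122 CPM at normal oxygen, compared with 1257, 1234 and 1489 CPM in hypoxia. FAM162A, which is linked to apoptosis under low oxygen, held 27.6, 27.8, 27.3, 27.6 and 27.7 CPM against 187, 180 and 235 CPM, and BNIP3L rose from 95.1 ± 5.47 to 302 ± 12.9 CPM. In all 3 genes the hypoxic libraries were well above every control. PINK1, the kinase of the other main mitophagy route, fell from 81.9 ± 8.04 to 53.4 ± 2.57 CPM. In nutrient signalling DDIT4, an inhibitor of the growth kinase complex mTORC1, rose by 3.17 on the log2 scale (mean levels 134 and 1207 CPM), and MTOR itself fell from 147 ± 3.86 to 52.8 ± 4.88 CPM. RRAGD, a small GTPase that recruits this complex to lysosomes, and EIF4EBP1, a translation repressor that it phosphorylates, rose by 1.18 and 0.65. The list had 9 of 19 genes higher and 7 lower.

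Of 17 genes of lipid storage and synthesis 9 rose and 5 fell, with a median of 0.36. PLIN2, a coat protein of the droplet, held 74.8, 73.1, 57.0, 57.3 and 78.2 CPM under normoxia, against 610, 606 and 660 CPM in hypoxia. HILPDA, which inhibits the triglyceride lipase of the droplet, held 13.4, 13.2, 14.5, 13.6 and 13.5 CPM against 138, 143 and 158 CPM. Neither had overlapping groups. G0S2, another inhibitor of that lipase, rose by 1.63, ABHD5, which activates it, fell by 1.02, and the lipase itself (PNPLA2) was not called (68.8 and 72.2 CPM). Of 19 oxidation genes 10 fell and 4 rose, with SLC25A20, the acylcarnitine carrier, at -1.07, HADH at -0.65 and CPT1A, the gatekeeper of entry, at -0.60 (-0.20 and not called against normoxic controls 3 and 4 only). ACADVL, which acts on very long chains, rose by 0.57.

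Secreted factors that act on vessels and neighbouring cells rose in 10 of 13 cases and fell in 2, with a median of 1.51. VEGFA held 37.4, 37.0, 31.9, 31.8 and 36.5 CPM at normal oxygen, compared with 259, 239 and 266 CPM in hypoxia. IGFBP3, which binds insulin-like growth factors, held 68.2, 66.1, 63.9, 63.5 and 66.0 CPM against 648, 599 and 774 CPM. Within the VEGF family VEGFB rose by 0.67, whereas PGF fell by 0.70. STC2, a secreted regulator of mineral balance, rose by 2.06, the vasoconstrictor EDN1 by 1.20 from 0.761 ± 0.115 CPM, and TGFA by 1.06. INHBA was not called, but was called higher by 0.34 against normoxic controls 3 and 4 only.

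Transcriptional repressors mostly rose, and clock genes went both ways. Of 15 basic helix-loop-helix and repressor genes 10 rose and 1, HEY1, fell. ZNF395, MXI1 (an antagonist of MYC), NFIL3 and the repressors BHLHE40 and BHLHE41 rose by 2.25, 2.10, 1.89, 1.73 and 1.27. BHLHE40 had 139 and 144 CPM in normoxic controls 3 and 4, 222 to 228 CPM in the other controls and 612 to 661 CPM in hypoxia. Of 15 clock genes 8 rose and 5 fell, against 29.2% and 31.6% of all tested genes. CRY1, a core repressor, held 30.5, 31.1, 32.2, 31.6 and 31.9 CPM under normoxia, against 9.02, 9.30 and 9.49 CPM in hypoxia, whereas its paralog CRY2 rose by 0.66. CLOCK and BMAL2 fell by 0.61 and 1.12, BMAL1 was not called, and the output and feedback genes CIART, NR1D1, DBP and PER1 rose by 1.52, 1.30, 1.23 and 1.13. All libraries were labelled with the same duration, 24 h, and the hour of collection is not given in the sources used here.

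Enzymes that use oxygen as a substrate showed a mixed pattern beyond the HIF hydroxylases. Of 18 JmjC histone demethylases, which remove methyl groups with oxygen and oxoglutarate, 12 rose and 2 fell. KDM3A rose from 81.2 ± 1.92 to 223 ± 10.2 CPM, KDM4B from 40.0 ± 1.90 to 105 ± 0.942 CPM, KDM6B by 1.27 and KDM4C by 1.26, whereas KDM4A fell by 0.40. All 7 genes of DNA methylation and its removal were called. UHRF1 and DNMT1, which copy methylation after replication, fell by 1.68 and 0.95, the de novo enzymes DNMT3A and DNMT3B by 0.27 and 0.74 and the dioxygenase TET3 by 0.37, while TET1 and TET2 rose by 0.62 and 0.21, the latter losing its call with library totals (0.14) or a replicate block (0.18). In collagen maturation 8 of 15 genes rose and 5 fell. LOX, which crosslinks collagen, held 13.4, 12.6, 10.1, 9.79 and 11.8 CPM at normal oxygen, compared with 166, 155 and 156 CPM in hypoxia. P4HA1 and P4HA2, catalytic subunits of collagen prolyl hydroxylase, rose by 2.53 and 1.86, and LOXL2 and PLOD2 by 1.31 and 1.08. The paralogs LOXL3, PLOD3 and LOXL1 fell by 1.02, 0.47 and 0.39, and PLOD1 was not called (150 ± 6.06 and 156 ± 3.56 CPM), but was called higher by 0.16 against normoxic controls 3 and 4 only.

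Iron genes rose in 8 of 14 cases and fell in 3. CP (ceruloplasmin), HMOX1 (heme oxygenase) and TFR2 rose by 1.54, 1.45 and 1.17, and the ferritin heavy chain FTH1 by 0.37. TFRC, the transferrin receptor, fell by 0.58, with 330, 331, 320, 326 and 325 CPM under normoxia, against 223, 249 and 180 CPM in hypoxia, and the iron exporter SLC40A1 fell by 0.87. In adenosine signalling 2 of 11 genes rose and 3 fell, below the share of all genes. ADORA2B, a receptor known as HIF-responsive, rose from 3.18 ± 0.173 to 9.68 ± 0.551 CPM, whereas the receptor ADORA1 and the adenosine-producing enzyme NT5E fell by 0.78 and 0.54. The call of NT5E was lost against normoxic controls 3 and 4 only (-0.06), with all 24 libraries fitted (-0.54) and without hypoxic library 2 (-0.47).

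DNA replication showed the most uniform fall among nuclear gene lists, which were chosen with earlier results of these data known. Of 35 genes 32 fell, 2 rose and 1 was not called, with a median of -0.82, and their summed level went from 3991 to 4182 CPM in normoxia to 2448 to 2611 CPM in hypoxia. PCNA, the sliding clamp of the polymerases, held 243, 235, 258, 258 and 256 CPM at normal oxygen, compared with 65.8, 72.5 and 73.5 CPM in hypoxia. MCM10, CDC45 and MCM6, of the replicative helicase and its loading, fell by 1.53, 1.48 and 1.40. CDT1, a licensing factor that is degraded in S phase, rose instead, from 67.8 ± 0.382 to 115 ± 4.17 CPM. Among repair genes, 18 of 23 genes of homologous recombination and mismatch repair fell and 1 rose (median -0.69), with BARD1 at -1.38, FANCA at -1.10 and BRCA1 at -0.70.

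Mitotic genes had smaller changes than replication genes. Of 27, 15 fell, 2 rose and 10 were not called, with a median of -0.18. MKI67 fell by 0.44 and CENPE, a kinetochore motor, by 0.71, TOP2A was not called (463 ± 11.2 and 481 ± 55.0 CPM), and UBE2C, an enzyme of mitotic exit, rose by 0.84 with hypoxic library 3 at 126 CPM and the other 2 at 91.2 and 91.4 CPM. In G1 control 15 of 22 genes fell and 3 rose. The cyclins CCND1, CCNE2, CCNE1 and CCND3 fell by 1.90, 1.90, 1.42 and 1.13 and E2F1 by 1.36. The inhibitor CDKN1B (p27) rose from 48.1 ± 2.96 to 81.6 ± 3.89 CPM, whereas CDKN1A (p21) fell from 114 ± 3.94 to 88.9 ± 4.64 CPM. Bulk RNA cannot separate a smaller share of cycling cells from less RNA of these genes per cell.

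**Figure D4:**
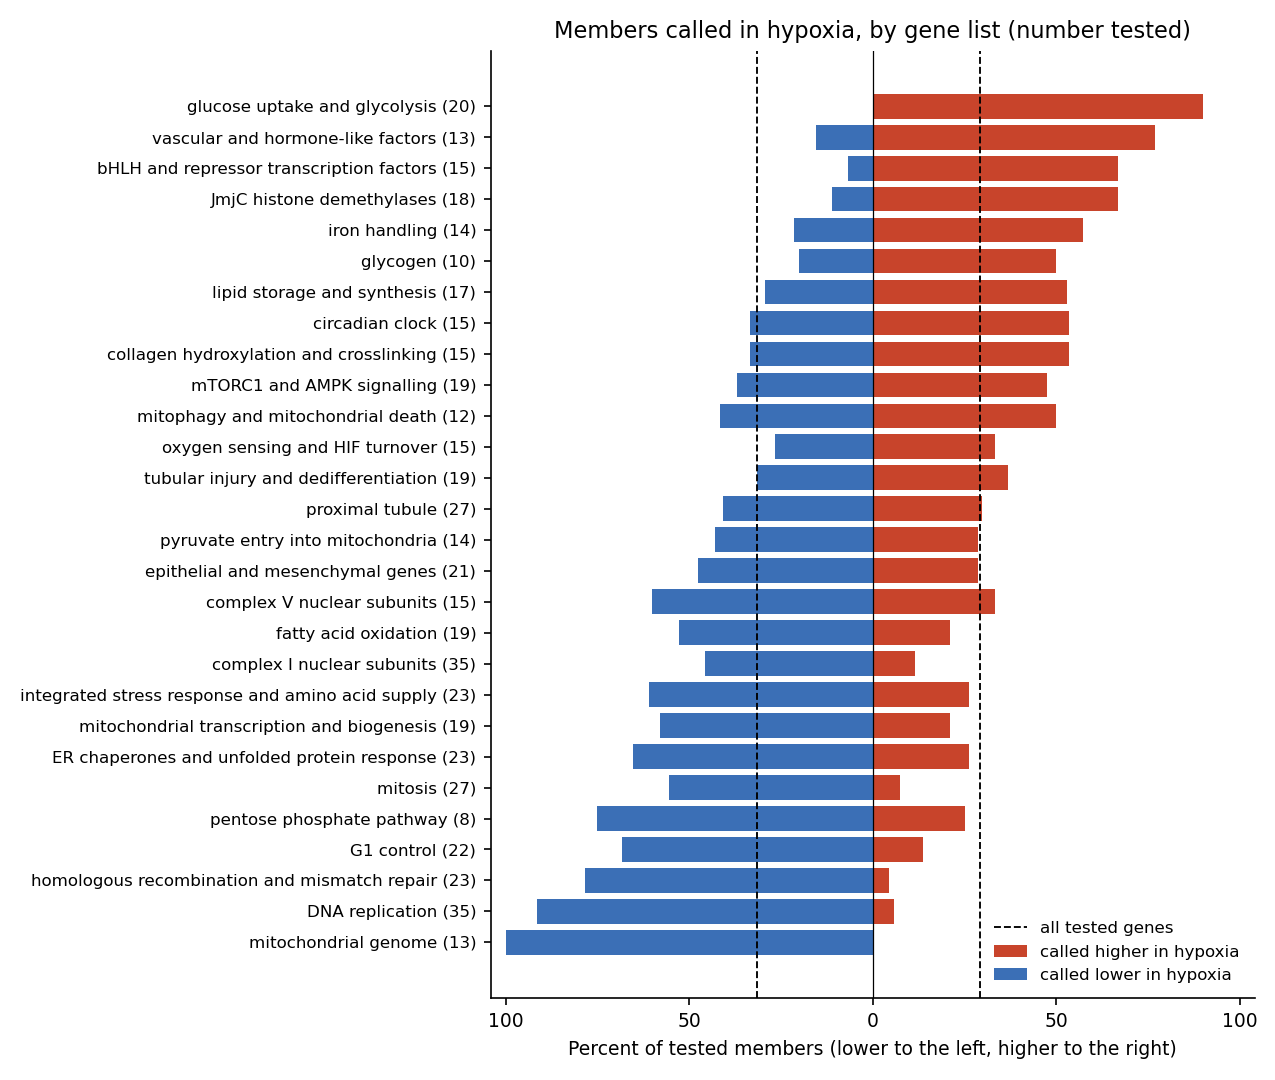
Percent of tested members called higher (red, right) and lower (blue, left) in hypoxia for 28 gene lists, with the number tested in brackets; dashed lines give the shares over all tested genes, 29.2% higher and 31.6% lower. Glycolysis lies at one end with 18 of 20 higher, and DNA replication and the mitochondrial genome at the other with 32 of 35 and 13 of 13 lower.

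In the stress programmes of protein folding and amino acid supply more genes fell than rose. Of 23 genes of the integrated stress response 14 fell and 6 rose (median -0.35). The summed level of this list nevertheless went up, from 1916 to 2092 CPM over the normoxic libraries to 2270 to 2309 CPM over the hypoxic ones. With BAY its median was 0.0027, and the difference between both oxygen effects was called for 12 of the 23 genes. CHAC1, which degrades glutathione, the cystine transporter SLC7A11, ASNS (asparagine synthetase) and PSAT1, of serine synthesis, fell by 2.45, 2.21, 1.44 and 1.06. The upstream factor ATF4 was called higher by 0.25 (0.11 against normoxic controls 1, 2 and 5 only and 0.54 against 3 and 4 only), a call lost in 7 of the 20 alternative settings, and CEBPB, TRIB3, SLC7A5 and DDIT3 rose by 1.57, 1.41, 1.13 and 0.91. Of 23 chaperone genes of the endoplasmic reticulum 15 fell and 6 rose. HSPA5, its main chaperone, held 732, 708, 585, 572 and 746 CPM under normoxia, against 305, 323 and 301 CPM in hypoxia, and SDF2L1, CRELD2 and DNAJB11 fell by 2.33, 1.86 and 1.16. ERO1A, the oxidase that passes electrons from disulfide formation to oxygen, rose from 150 ± 2.81 to 509 ± 25.3 CPM, while ERO1B was not called (13.4 and 12.4 CPM).

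Proximal tubule genes showed no common direction, with 8 of 27 higher, 11 lower and 8 not called. Over all tested genes 29.2% were higher and 31.6% lower. The glucose transporter SLC2A2 and the efflux pump ABCC2 fell by 1.38 and 1.04, and the phosphate transporter SLC34A1 rose from 2.74 ± 0.283 to 6.42 ± 0.251 CPM. The nephron regulator PAX8 rose by 0.55, and DPP4, GGT1 and MME were not called. DPP4 was called lower against normoxic controls 1, 2 and 5 only (-0.14) and higher against 3 and 4 only (0.15), and GGT1 was called higher against 3 and 4 only (0.22). GGT1 was also called higher with the filter at 1 CPM (0.11), a replicate block (0.10) and without normoxic control 5 (0.13). Of 19 genes of tubular injury and dedifferentiation 7 rose and 6 fell, near the shares of all tested genes. VIM, CD44 and SOX9 rose by 1.43, 1.28 and 1.20, KRT7 and the chemokine CCL2 fell by 1.37 and 1.35, and HAVCR1, the classical injury marker known as KIM-1, was not called (469 ± 14.8 and 496 ± 65.7 CPM) but was called higher by 0.19 without hypoxic library 3. Epithelial and mesenchymal genes had 6 of 21 higher, near the share of all tested genes, and 10 lower. The junction genes CLDN2, CDH1 and TJP1 fell by 1.46, 1.13 and 1.13, and of the repressors of epithelial genes ZEB2 rose by 1.03 and SNAI2 fell by 1.61. The median of each of these 3 lists changed sign against normoxic controls 3 and 4 only, to 0.11, 0.16 and 0.02. That of the proximal tubule list was also positive against controls 1, 2 and 5 only (0.028), so its sign is not settled.

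Markers of other cell types changed in a few cases. SYNPO, an actin-bundling gene named for podocytes, rose from 75.2 ± 9.72 to 473 ± 21.1 CPM, so the summed podocyte list went from 72.4 to 92.1 CPM in normoxia to 464 to 502 CPM in hypoxia. Of the defining podocyte markers, WT1 was at no more than 2 counts and NPHS1 at no more than 13 counts in any library. The sums for endothelial markers were 31.4 to 42.1 CPM in normoxia and 43.6 to 53.0 CPM in hypoxia, nearly all of it EGFL7 (35.6 and 48.0 CPM), which rose by 0.43 (0.70 against normoxic controls 3 and 4 only), with KDR at no more than 1 count and CLDN5 at 0. The summed fibroblast markers (112 to 140 and 128 to 136 CPM) overlapped between the groups and were mostly LUM and COL1A1. LUM was not called, but was called higher by 0.14 against normoxic controls 1, 2 and 5 only and lower (-0.17) against 3 and 4 only. The summed immune markers overlapped too (379 to 414 and 377 to 391 CPM, with CD3E at 0), although CD68, a lysosomal protein gene, rose from 123 ± 2.80 to 206 ± 7.30 CPM and CD74, the invariant chain, fell from 271 ± 16.1 to 178 ± 2.94 CPM. The distal nephron sum was 37.4 to 41.0 CPM in normoxia and 31.8 to 37.2 CPM in hypoxia without overlap, mostly SCNN1A, which fell by 0.32, with UMOD and AQP2 at 0. The part of these markers in the other results was not tested.

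Against 29.2% higher and 31.6% lower over all tested genes, 4 of 11 long noncoding RNAs with a known link to hypoxia rose and 1 fell. Besides LUCAT1 these were GAS5 (264 ± 12.6 to 595 ± 57.7 CPM), PVT1 (24.5 ± 1.42 to 49.6 ± 3.34 CPM) and MIR210HG, the host of miR-210, at 12 counts in normoxia and 101 in hypoxia (ratio 14.7, 8.06 to 29.4). The abundant NEAT1 and MALAT1 were not called (log2 fold changes 0.05 and -0.10), and NEAT1 was called higher against controls 1, 2 and 5 only (0.32) and lower against 3 and 4 only (-0.23). By gain in CPM rather than fold, NDRG1 was followed by EEF1A1, an elongation factor of translation (10101 ± 778 to 15160 ± 572 CPM), GAPDH, ENO1, PGK1, ALDOA, EEF2 and SLC2A1, together with ENSG00000291420 and ENSG00000288299, which carry no symbol in the gene tables used. Of the 10 largest losses 9 were mitochondrial RNAs, led by MT-CO1 (15154 ± 629 to 9210 ± 599 CPM), and 1 was FN1, fibronectin (5154 ± 105 to 4014 ± 372 CPM). FN1 went the other way in the libraries with BAY: its log2 fold change was -0.36 with solvent and 0.32 with BAY. Both were called, and so was their difference (edgeR adjusted p = 0.000188).

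The largest falls by fold included immediate early genes whose change depended on the normoxic controls. EGR1, a growth factor-induced transcription factor, held 145, 130, 7.60, 7.01 and 130 CPM at normal oxygen, compared with 4.40, 5.16 and 3.83 CPM in hypoxia. The fall of 4.23 (SE 1.10, edgeR adjusted p = 0.0064) was 0.67 against controls 3 and 4 only and was not called with limma voom (-3.24, adjusted p = 0.099). CCN2 and CCN1, matricellular genes induced by growth factors and stretch, showed the same split. CCN1 fell by 1.93, and by 1.18 against controls 3 and 4 only. CCN2 held 103, 96.7, 33.5, 33.5 and 92.4 CPM against 7.77, 7.84 and 7.70 CPM, and its fall of 3.21 became 2.07 against controls 3 and 4 only. TRIM27, whose reads may be split by annotation choices that are not stated, had a wide spread (7.47, 8.75, 2.93, 8.31 and 40.9 CPM against 0.838, 0.231 and 1.21 CPM), and its call (-4.18, SE 1.28) was lost without hypoxic library 1 (-4.25, edgeR adjusted p = 0.0505) or 2 (-3.73, 0.0603), against controls 3 and 4 only (-2.86, 0.0939) and with limma voom (-3.88, 0.0736).

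The large falls of SLC26A2 and OSBPL6 were even across the controls. SLC26A2, a sulfate transporter, held 56.4, 57.9, 56.1, 55.9 and 57.1 CPM under normoxia, against 11.3, 11.5 and 10.1 CPM in hypoxia, and OSBPL6, a sterol-binding protein gene, held 5.89, 6.13, 6.07, 6.04 and 6.28 CPM against 1.05, 0.868 and 1.05 CPM. In both, the controls lay within a narrow band far above the hypoxic libraries. Further log2 fold changes were -3.07 for the kinase-like gene RPS6KL1, -2.74 for the carrier gene SLC25A35, -2.62 for the protease gene ADAMTS7, -2.42 for SNPH (syntaphilin, which anchors mitochondria in axons), -2.32 for the channel gene TRPV2 and -2.31 for the kinase gene NRK.

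The oxygen effect was measured a second time in the 6 libraries with BAY, which share no library with the comparison above but were fitted jointly with it. There 12999 genes were called (61%), 6058 higher (28.4%) and 6941 lower (32.6%). In both comparisons 10145 genes were called with the same direction, which is 78.3% of the genes called with solvent and 78% of those called with BAY, and 231 had opposite directions. Of the 2858 genes called at least 2-fold with solvent, 2275 (79.6%) were called in the same direction with BAY and 7 in the opposite one. All 13 mitochondrial messages, 18 of 18 called glycolysis genes and 32 of 34 called replication genes kept their direction as calls. Other lists agreed less, among them epithelial and mesenchymal genes (7 of 16 called genes) and mitophagy and mitochondrial death (7 of 11). Complex III (5 of 8), adenosine signalling (3 of 5) and complex II (0 of 2) also lay below the share of all called genes. The difference between both oxygen effects was itself called for 3571 genes (16.8%), and for 5821 against normoxic controls 1, 2 and 5 only. The values below use all 5 controls. CA9 rose by 6.94 with solvent and 8.48 with BAY (edgeR adjusted p of the difference 0.0322), VEGFA by 2.87 and 4.58 (3.8e-06), SLC2A1 by 3.03 and 4.14 (3.03e-06) and SLC7A5 by 1.13 and 3.11 (5.33e-11). DDIT4 rose less with BAY (3.17 and 1.97, 6.8e-07), as did IGFBP3 (3.36 and 2.32, 5.84e-05). CA12 and PDK4, not called with solvent, had log2 fold changes of 2.15 and -2.26 with BAY, and the differences were called (2.31e-05 and 0.000399), though the solvent value of both depended on the controls. NDRG1 had 5.12 and 4.97, BNIP3 3.58 and 3.70 and PLIN2 3.20 and 2.97, and these differences were not called.

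**Figure D5:**
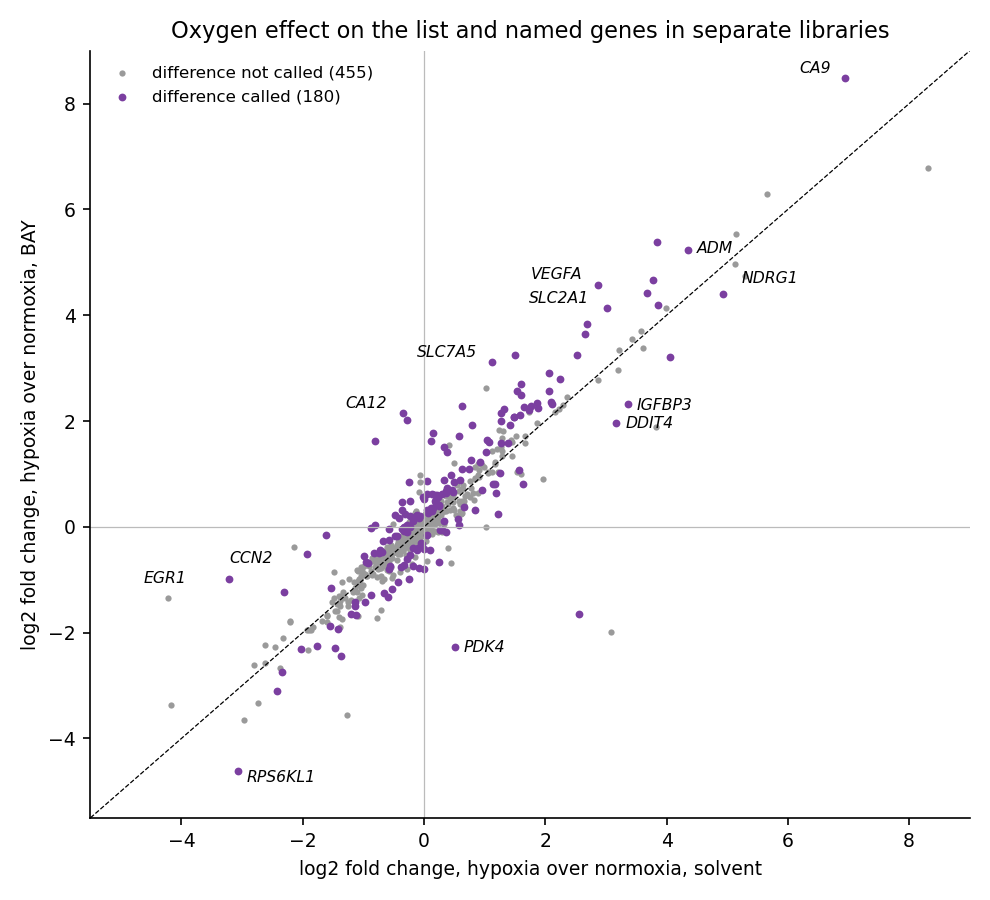
Log2 fold change, hypoxia over normoxia, with solvent (x axis, 5 and 3 libraries) and with BAY (y axis, 3 and 3 libraries) for the list and named genes; purple points are genes whose difference between both effects was called. The difference was called for 180 of the 635 genes drawn, a larger share than the 16.8% of all tested genes. CA9, VEGFA, SLC2A1 and SLC7A5 lie above the dashed line of equal effects, and DDIT4 and IGFBP3 below it.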

How the data were processed

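RNA of HK-2 cells was sequenced as poly(A) libraries (NEBNext Ultra II). The authors deposited Salmon estimated counts per gene on GRCh38, per the submitters' processing notes and the file's values, of which 48.6% of those above 0 are not whole. They were rounded to whole numbers here. The annotation release and strand setting are not stated. IDs without a symbol (6261 of 65180) held 4.36% of counts and stayed in the fit. Positions and exon lengths came from GENCODE 29 (54637 IDs matched), promoter windows from RefSeq.

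Counts of 14 libraries in 4 groups (5, 3, 3 and 3) were filtered with filterByExpr, scaled by TMM and tested with the robust quasi-likelihood test of edgeR 4.0.16 (R 4.3.3), with Benjamini-Hochberg adjustment over all 21316 genes and a threshold of 0.05. SE was derived from the fold change and the F statistic. The fit was tested on simulated data. CPM values use library totals corrected by the TMM factors. Alternatives used DESeq2 1.42.0, limma 3.58.1, other filters and scalings, a replicate block, subsets of the controls and each library left out.

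Named genes are the 15 largest rises and falls above 5 CPM without overlap, the 10 largest gains and losses in CPM, up to 4 called members per list with others whose role is needed, and 4 markers. Genes and lists were chosen with earlier results of these data known. Some members of the lists are counted but not reported by name here.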

Additional observations from a re-analysis of the deposited data

Results flagged for a closer look

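In some genes the oxygen effect differed between cells with BAY and cells with solvent by more than 1 on the log2 scale, and edgeR called that difference. The effect was more positive with BAY by 2.50 for CA12, 2.22 for CCN2, 1.98 for SLC7A5, 1.71 for VEGFA, 1.54 for CA9, 1.53 for DOC2A, 1.50 for INHBA, 1.46 for SNAI2, 1.42 for CCN1, 1.15 for EPAS1, 1.15 for SLC2A3, 1.11 for SLC2A1, 1.10 for HK2, 1.09 for NRK and 1.03 for CP. It was more negative with BAY for PDK4 (-2.77), RPS6KL1 (-1.54), DDIT4 (-1.20), KRT7 (-1.08) and IGFBP3 (-1.04). The oxygen effect of VEGFA, SLC7A5 and CA9 was a rise in both settings, while CCN2 fell with solvent and EPAS1 rose with solvent. Because normoxic controls 1, 2 and 5 differ from 3 and 4, values of genes such as CCN1, CCN2 and PDK4 depend on which controls are used.

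For some genes 1 of the 5 normoxic controls lay far from the other 4, relative to the range of the group. The highest control stood apart for ADAMTS7 (8.97 CPM), CCL2 (3.48 CPM), HILPDA (14.5 CPM), NDUFS8 (40.6 CPM), PPP1R3B (0.142 CPM), TET3 (78.4 CPM), TIGAR (13.0 CPM) and TRIM27 (40.9 CPM). The lowest stood apart for DOC2A (0.401 CPM) and KDM4A (88.1 CPM). Chance alone marks about 1 in 20 groups in this way, and 251 genes were examined. The 3 hypoxic libraries were too few for this check.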

How the results depend on the processing

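Of the 251 genes named, 225 were called, none of these changed sign in any of the 20 alternative settings, and 6 lost the call in at least 1 (ATF4, CPT1A, EGR1, NT5E, TET2 and TRIM27). ANPEP, BMAL1, CA12, COX4I1, DPP4, ERO1B, GGT1 and HAVCR1 were not called in the main fit but gained a call in at least 1 setting. So did INHBA, LDHB, LUM, NEAT1, PDK4, PLOD1, PNPLA2 and VHL. A filter at 1 CPM in 3 libraries, which tests fewer genes, left 859 genes called at least 2-fold higher and 815 lower. The difference between both oxygen effects was called for 5821 genes when normoxic controls 1, 2 and 5 only were used, an alternative chosen after seeing the data, as was the one with controls 3 and 4 only. The cause was not tested. Leaving out 1 library at a time gave 11985 to 12885 genes called, 5802 to 6260 higher and 6075 to 6625 lower, 1384 to 1486 at least 2-fold higher and 1292 to 1387 lower, 12105 to 12324 called with BAY and 2560 to 3914 called for the difference. Sign changes occurred only in genes that were not called: with the filter at 1 CPM in 3 libraries the log2 fold change was 0.00595 for LUM. With DESeq2 the log2 fold change was 0.00792 for LUM. With library totals in place of TMM the log2 fold change was -0.0221 for NEAT1, -0.0165 for PLOD1, -0.00315 for PNPLA2, -0.0547 for SLC16A1 and -0.0177 for TOP2A. With limma voom the log2 fold change was 0.25 for HNF4A. With no filter on low counts the log2 fold change was 0.00123 for LUM. With normoxic controls 1, 2 and 5 only the log2 fold change was 0.0157 for CUBN, 1.49 for HNF4A, 0.14 for LUM and -0.0294 for SLC16A1. With normoxic controls 3 and 4 only the log2 fold change was 0.0611 for CA12, 0.0475 for COX4I1, 0.15 for DPP4, 0.11 for MME and -0.23 for NEAT1. With the replicate block the log2 fold change was 0.0453 for LUM. With RLE size factors the log2 fold change was 0.00786 for LUM. Leaving out 1 library gave -0.46 to 0.0917 for ALDOC, -0.12 to 0.022 for COX4I1, -0.96 to 0.68 for HNF4A, -0.0587 to 0.0446 for LUM, -0.0107 to 0.16 for NEAT1, -4.42 to 7.51 for PPP1R3B, -0.0344 to 0.0544 for SLC16A1 and -0.042 to 0.12 for TOP2A. The medians of 15 of the 42 lists changed sign in some setting, and most of these were near 0. An exception was the distal nephron list with 4 tested genes, at 0.46 in the main fit and -0.32 without mitochondrial RNAs.

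Replicate numbers did not pair the samples: deviations of same-numbered libraries correlated at -0.099, -0.078 and -0.109, so the numbers were treated as names. With the replicate number as a block 12183 genes were called in place of 12960, 5868 higher and 6315 lower, with 12863 called with BAY and 3039 for the difference.

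The solvent comparison rests on 3 hypoxic libraries of 1 cell line at 1 time point. On simulated counts with these group sizes, 80.6%, 86.6% and 98.5% of genes changed by 1.5, 2 and 4-fold were recovered, and 6.84% of the calls among 20554 genes were false. Only 67, 67 and 66 genes were changed there, and the normoxic controls had no split. The real comparison called 12960 genes, so these rates check the fit and do not carry over to the real calls.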
